A study of Mus musculus with 6 samples.

Results

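Purines enter the nucleotide pool of a cell in 2 ways, by synthesis from small precursors and by salvage of bases and nucleosides that are already there. The genes described here encode 10 mouse enzymes of salvage and breakdown, namely Hprt, Aprt, Adk, Nt5e, Ada, Pnp, Gda, Xdh, Nme1 and Nme2, and the members are the probe sets that the array's annotation pairs with 1 of these genes alone. There were 10 such probe sets, 1 for each gene, among 28940 on the array, of which the 23410 with any gene in the annotation were tested. The cells were B cell progenitors (pro-B and pre-B cells sorted and kept together, not manipulated before the measurement) from BALB/c mice, an inbred strain. They came from old mice aged 24 months on 3 arrays and from young mice aged 2 months on 3 arrays, with 100 ng of RNA amplified for each array. The comparison asks how transcript levels in these progenitors differ with the age of the mouse. Nothing in the labels tells if each array is from a single mouse or from several, so p-values measure only the spread between these arrays, which may be technical, and 3 arrays a group limit the precision. In a bulk sample, fewer cells of a type and less RNA per cell cannot be told apart.

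Salvage costs a cell far less energy than building the purine ring anew. Hprt joins hypoxanthine and guanine, and Aprt joins adenine, to the sugar phosphate PRPP, while Adk phosphorylates adenosine directly. In the opposite direction Nt5e (CD73) releases adenosine from AMP at the cell surface, Ada turns adenosine and deoxyadenosine into their inosine forms, Pnp splits inosine and guanosine into sugar phosphate and base, Gda deaminates guanine to xanthine, and Xdh oxidises hypoxanthine and xanthine towards uric acid. Nme1 and Nme2 are nucleoside diphosphate kinases, which charge the diphosphates of all bases to triphosphates. The pathway matters to lymphocytes in particular: in humans, loss of ADA causes severe combined immunodeficiency and loss of PNP a T cell deficiency, since deoxynucleosides that are not broken down are toxic to lymphoid precursors.

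Hprt and Aprt are the classical pair of salvage enzymes, and their values lay on opposite sides of the young arrays on old replicates 1 and 2. Hprt, Pnp and Nme1 lay below the young arrays on all 3 old arrays, as did Adk, Ada and Nme2, whose sequences are not shown. The 250 bases before the transcription start of Hprt, Aprt, Pnp and Nme1, by RefSeq on build GRCm38.p6, are shown to set these 4 genes beside each other. They lie at chrX:52987828-52988077, plus strand, for Hprt, at chr8:122576908-122577157, minus strand, for Aprt, at chr14:50944053-50944302, plus strand, for Pnp, and at chr11:93968273-93968522, minus strand, for Nme1, where the outermost of its starts was taken. Each is written from 5′ to 3′ on the strand of its gene, with capitals for matches on either strand to the GC box GGGCGG, which reads CCGCCC on the opposite strand, and to the E-box, whose letters are CACGTG on either strand.
Hprt: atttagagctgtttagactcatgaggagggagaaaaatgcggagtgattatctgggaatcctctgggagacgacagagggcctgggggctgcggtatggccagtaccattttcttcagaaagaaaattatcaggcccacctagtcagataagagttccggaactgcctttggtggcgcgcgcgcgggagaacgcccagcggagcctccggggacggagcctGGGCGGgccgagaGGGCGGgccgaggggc
Aprt: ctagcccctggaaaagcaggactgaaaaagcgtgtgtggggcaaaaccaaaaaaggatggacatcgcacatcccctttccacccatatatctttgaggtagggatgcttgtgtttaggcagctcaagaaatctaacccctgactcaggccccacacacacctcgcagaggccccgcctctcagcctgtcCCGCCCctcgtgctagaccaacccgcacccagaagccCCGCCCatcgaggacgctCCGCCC
Pnp: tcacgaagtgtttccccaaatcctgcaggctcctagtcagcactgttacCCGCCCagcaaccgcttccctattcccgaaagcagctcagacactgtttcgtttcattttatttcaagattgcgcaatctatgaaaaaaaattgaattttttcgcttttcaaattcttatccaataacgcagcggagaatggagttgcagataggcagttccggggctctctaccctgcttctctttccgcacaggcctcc
Nme1: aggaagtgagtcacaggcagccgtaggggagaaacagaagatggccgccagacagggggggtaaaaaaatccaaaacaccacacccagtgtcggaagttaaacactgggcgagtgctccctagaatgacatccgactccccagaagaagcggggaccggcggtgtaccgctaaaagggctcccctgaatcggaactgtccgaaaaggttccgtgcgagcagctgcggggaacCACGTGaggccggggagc
The GC box was found 2 times before Hprt, 3 times before Aprt, 1 time before Pnp and 0 times before Nme1, and the E-box was found 1 time before Nme1 and in none of the other three. Of 32851 RefSeq promoters cut to the same length, 32.7% held a GC box and 6.02% an E-box. These were counted over every listed start and not the outermost alone, unlike the members below. Promoters of 9 of the 10 members were in the table, and by the outermost start 6 of these 9 held a GC box, 1 an E-box and 0 the letters TATAAA, or TTTATA for the opposite strand, which 12.4% of all promoters held. The count depends on the start taken, since Nme2 held 0 GC boxes at its outermost start and 3 at its other listed start. The motifs do not overlap each other in the sequences shown. These matches are descriptions of the letters and not of factors bound there.

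The arrays differed from each other before any gene is considered. The interquartile range of all log2 values was 1.52 for old replicate 1, 1.51 for old replicate 2, 2.44 for old replicate 3 and 2.72 to 2.89 for the young arrays. Since no detection calls were used, background was read from the 1375 probe sets for receptors of smell and pheromones (olfactory and vomeronasal), whose 95th percentile on each array is called the receptor level. This level was 6.30 for old replicate 1, 6.41 for old replicate 2, 5.18 for old replicate 3 and 4.60 to 4.84 for the young arrays. Of 9 measured markers of B cell progenitors, 4, 3 and 8 lay above it on old replicates 1, 2 and 3, against 9 on each young array. Of 7 neutrophil markers, 2, 3 and 7 did, against 7 on each young array. The summed intensity of the neutrophil markers was 1930, 4684 and 8077 on the old arrays and 7600 to 9608 on the young arrays, and that of the B cell markers 2776, 4316 and 7223 against 8106 to 8633. Of 5 T cell and 5 macrophage markers at most 3 and 2 were above the level on any array, and of 3 measured erythroid markers at most 1 was on an old array, against 2 or 3 on a young array. The part of these differences between arrays in the values below was not tested. Levels below are on the log2 scale of the deposited intensity unless another scale is named, and each difference is the old mean less the young mean. The median difference over all tested probe sets was 0.35, so each member's difference over all 6 arrays is also given relative to that median. Without the dimmest 30% of probe sets by mean level the median was -0.10. Against that reference the falls would be smaller than the relative values given below.

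No member passed the threshold of an adjusted p under 0.05 with limma and Benjamini-Hochberg adjustment over all tested probe sets, nor did any other probe set (percentage called 0%). The unadjusted p (limma) was under 0.05 for 7 of the 10 members, 6 of them lower and 1 higher in the old group. Of all tested probe sets 46.8% had such a p, made up of 21.9% of all tested probe sets lower and 24.9% higher. The median difference of the 10 members was -0.87. Old and young arrays did not overlap for 7 members, as for 59% of all tested probe sets, with Hprt, Adk, Ada, Pnp, Nme1 and Nme2 lower and Nt5e higher on all 3 old arrays. Over all tested probe sets 22.9% were lower without overlap and 36.1% higher. Among the 11635 probe sets above the receptor level on all 3 young arrays these shares were 45% and 15%. The members' 6 lower genes were all above that level on the young arrays, which is the side that makes a fall measurable, so nothing is read from that count. The number of members above the receptor level was 1, 2 and 6 for old replicates 1, 2 and 3, against 7, 7 and 9 for young replicates 1, 2 and 3.

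**Figure D1:**
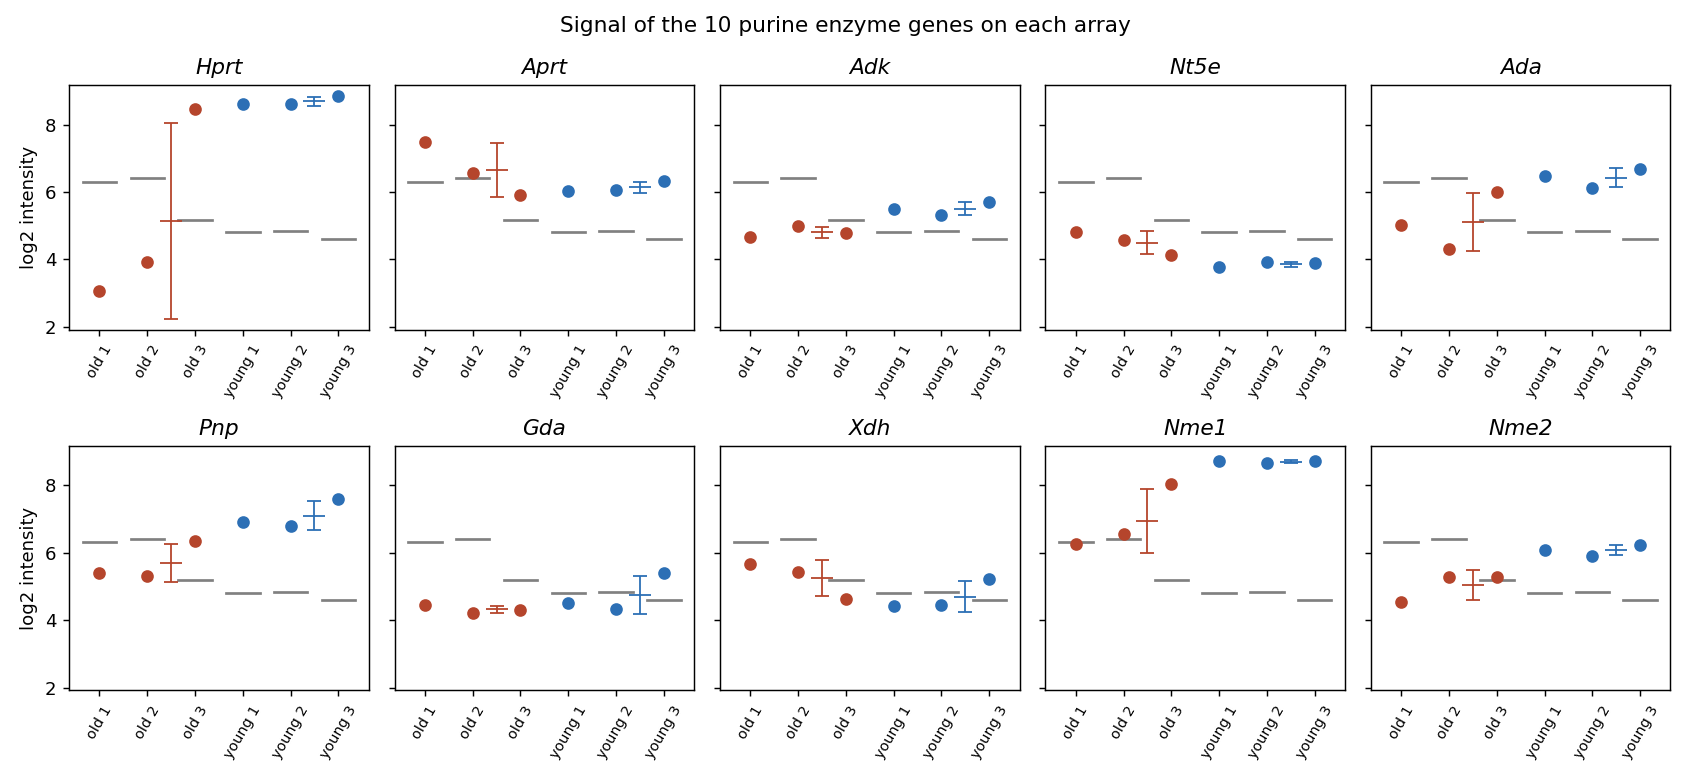
Log2 intensity (vertical axis) of each of the 10 genes on the 3 old and the 3 young arrays (horizontal axis), with points for arrays, a cross bar for each group's mean with its SD, and grey lines for the receptor level of that array. Hprt stood at 3.07 and 3.92 on old replicates 1 and 2 but at 8.47 on old replicate 3, beside young values of 8.61 to 8.84, while Aprt was highest on old replicate 1.

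Of the salvage enzymes, Hprt had the widest spread among the old arrays. It stood at 3.07, 3.92 and 8.47 on old replicates 1, 2 and 3, against 8.61, 8.61 and 8.84 on young replicates 1, 2 and 3. Old replicates 1 and 2 were low and old replicate 3 was just under the lowest young array, so that the groups did not overlap. The means were 5.15 ± 2.90 in the old and 8.69 ± 0.14 in the young group (SD, n = 3 each), a difference of -3.53 ± 1.30 (SE), or -3.88 relative to the median, with an adjusted p of 0.101 (limma). Hprt on old replicates 1 and 2 was below the receptor level and also under the median of the receptor probe sets, which was 4.21 and 4.26 there, so its fall has only a bound on these arrays. With these values raised to the receptor level, the young mean exceeded them by at least 2.38 on old replicate 1 and 2.28 on old replicate 2 (log2). Such bounds, here and below, hold on the deposited scale only. They make no allowance for the narrower signal range of old replicates 1 and 2. On old replicate 3 it differed from the young mean by -0.22, less than the 0.24 between the lowest and the highest young array, and after quantile normalization by 0.0045.

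Aprt went the other way on the same arrays. It stood at 7.49, 6.56 and 5.91 on old replicates 1, 2 and 3, against 6.04, 6.06 and 6.33 on young replicates 1, 2 and 3. Old replicates 1 and 2 were above all young arrays and old replicate 3 below all of them, so that the groups overlapped. Its means were 6.65 ± 0.80 in the old and 6.14 ± 0.17 in the young group (SD, n = 3 each), and the difference of 0.51 ± 0.41 (SE), or 0.16 relative to the median, had an adjusted p of 0.303 with limma. The difference was 0.09 without old replicate 1, 0.25 with median centring and 1.51 after quantile normalization. Aprt was the only member above the receptor level on all 6 arrays, a state it shared with 19.5% of the 11635 probe sets above it on all young arrays. On old replicate 1 it was also above the 99th percentile of the receptor probe sets, which was 7.41, and on old replicate 2 it was not, at a 99th percentile of 7.87. Old replicates 1 and 2 exceeded all 3 young arrays at 22.7% of those 11635 probe sets. By its place among all tested probe sets of an array, Aprt was at the 96.3 percentile on old replicate 1, the 89.1 percentile on old replicate 2 and the 67.8 percentile on old replicate 3, against 68.0, 68.5 and 70.6 on the young arrays.

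Adk, which returns adenosine to AMP, was within background on every old array. It stood at 4.65, 4.98 and 4.78 on old replicates 1, 2 and 3, against 5.49, 5.32 and 5.72 on young replicates 1, 2 and 3. The 3 old values lay close together and below all young values. The means were 4.80 ± 0.16 in the old and 5.51 ± 0.20 in the young group (SD, n = 3 each). The difference of -0.71 ± 0.22 (SE), or -1.06 relative to the median, had an adjusted p of 0.101 with limma. All 3 old values were within the receptor level and all 3 young values above their own, but the level on old replicates 1 and 2 was higher than any young value of Adk. No size of fall is therefore measured there, and on old replicate 3 the bound was at least 0.33 below the young mean.

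At the entry to breakdown, Nt5e was not seen above background on any array. It stood at 4.80, 4.56 and 4.12 on old replicates 1, 2 and 3, against 3.78, 3.91 and 3.91 on young replicates 1, 2 and 3. The old values were all higher than the young ones, yet all 6 were within the receptor level of their array, so no fold is given. The difference of 0.63 ± 0.24 (SE), or 0.28 relative to the median, had an adjusted p of 0.101 with limma, and it was 0.38 with median centring and 0.12 after quantile normalization.

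Ada, the deaminase of adenosine and deoxyadenosine, was lower on all old arrays. It stood at 5.02, 4.30 and 6.002 on old replicates 1, 2 and 3, against 6.48, 6.12 and 6.67 on young replicates 1, 2 and 3. Old replicate 3 was close under young replicate 2, and old replicate 2 was the lowest of all. The means of 5.11 ± 0.86 in the old and 6.43 ± 0.28 in the young group (SD, n = 3 each) differed by -1.32 ± 0.44 (SE), or -1.67 relative to the median (adjusted p = 0.101 with limma). Old replicates 1 and 2 were within the receptor level, and raised to it they were at least 0.12 and 0.02 below the young mean. On old replicate 3, where Ada was measured above background, it differed from the young mean by -0.43, less than the 0.55 between the young arrays.

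Pnp, the next step after Ada, had a like order of arrays. It stood at 5.41, 5.31 and 6.34 on old replicates 1, 2 and 3, against 6.92, 6.78 and 7.60 on young replicates 1, 2 and 3. No old array reached a young one, and young replicate 3 was the highest. The means of 5.69 ± 0.57 in the old and 7.10 ± 0.44 in the young group (SD, n = 3 each) differed by -1.41 ± 0.37 (SE), or -1.76 relative to the median (adjusted p = 0.101 with limma). Raised to the receptor level, old replicates 1 and 2 were at least 0.79 and 0.69 below the young mean. Old replicate 3, above that level, differed from the young mean by -0.75, less than the 0.81 between the young arrays. Pnp lies next to its near copy Pnp2 in the RefSeq annotation, and a further probe set is paired with both genes, so the signals of these near copies may not be separate.

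The last enzymes of breakdown gave little signal. Gda stood at 4.44, 4.22 and 4.30 on old replicates 1, 2 and 3, against 4.51, 4.33 and 5.39 on young replicates 1, 2 and 3. Xdh stood at 5.67, 5.44 and 4.64 on those old arrays, against 4.43, 4.45 and 5.22 on those young arrays. For both genes young replicate 3 was the only array above its receptor level, and the groups overlapped. Gda differed by -0.42 ± 0.32 (SE, adjusted p = 0.278 with limma) and Xdh by 0.55 ± 0.36 (SE, adjusted p = 0.222), or by -0.77 and 0.20 relative to the median. Without young replicate 3, Gda differed by -0.10, and with median centring and after quantile normalization by -0.67 and -0.83. Xdh differed by 0.34 without old replicate 1, 0.30 with median centring and 0.48 after quantile normalization. Its difference was larger without young replicate 3, at 0.81, and without old replicate 3, at 0.86. Young replicate 3 also held the highest values of Hprt, Adk, Ada, Pnp, Nme1 and Nme2, for Nme1 by less than its printed decimals show. Its summed neutrophil markers were the highest of all arrays, at 9608 against 7893 and 7600 on young replicates 1 and 2. The erythroid sum was also highest there, at 244. Its T cell and macrophage sums, 138 and 214, were the highest of the young arrays, but its B cell sum was not. This array also had the widest interquartile range, 2.89, and the lowest receptor level, 4.60. The part of those cells, or of the signal range, in these values was not tested.

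Both diphosphate kinases were lower on all old arrays. Nme1 stood at 6.26, 6.54 and 8.03 on old replicates 1, 2 and 3, against 8.72, 8.65 and 8.72 on young replicates 1, 2 and 3. Its young values lay within 0.08 of each other, and all old values were below them by more than that. The means of 6.94 ± 0.95 in the old and 8.70 ± 0.04 in the young group (SD, n = 3 each) differed by -1.75 ± 0.46 (SE), or -2.10 relative to the median, with an adjusted p of 0.101 (limma). After quantile normalization the difference was -0.64. Nme1 was above the receptor level on old replicates 2 and 3 and just within it on old replicate 1. Raised to that level, it was at least 2.39 below the young mean there on the deposited scale. It was 2.15 below that mean on old replicate 2 and 0.67 below it on old replicate 3. Its place among all tested probe sets was at the 84.7, 88.8 and 90.6 percentiles on the old arrays, against 93.2, 92.8 and 92.7 on the young arrays.

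Nme2, its neighbour on the same chromosome in the RefSeq annotation, stood at 4.53, 5.29 and 5.29 on old replicates 1, 2 and 3, against 6.09, 5.92 and 6.24 on young replicates 1, 2 and 3. All old arrays were lower, with old replicates 2 and 3 at the same level. The means of 5.04 ± 0.44 in the old and 6.08 ± 0.16 in the young group (SD, n = 3 each) differed by -1.04 ± 0.28 (SE), or -1.39 relative to the median (adjusted p = 0.101 with limma). Only old replicate 3 was above its receptor level among the old arrays, by a narrow margin, and it differed from the young mean by -0.79. For old replicates 1 and 2 the receptor level was above the young mean, so no size of fall is measured there.

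Which old arrays enter decided the calls. Without old replicate 3, limma called 9 of the 10 members, Hprt, Adk, Ada, Pnp, Nme1 and Nme2 lower and Aprt, Nt5e and Xdh higher, but it then called 82.4% of all tested probe sets, 30.2% lower and 52.2% higher. A share of 9 in 10 is thus near that of the array as a whole. Gda alone was not called (adjusted p = 0.257). With estimated array weights, whose fit stopped before it reached its convergence tolerance, 6 members were called lower and 3 higher, where 85.4% of all tested probe sets were called, 31.4% lower and 54% higher. The weighted differences were -4.75 for Hprt, -2.16 for Nme1, -1.99 for Ada, 0.54 for Aprt and 0.87 for Xdh. Without old replicate 3, Hprt differed by -5.19 ± 0.25 (SE), Nme1 by -2.29 ± 0.14 (SE) and Aprt by 0.88 ± 0.28 (SE), and these sizes rest on old replicates 1 and 2, the arrays with narrow signal.

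Old replicate 3, whose range of signal and marker counts were closer to those of the young arrays, gave another picture. Set alone against the 3 young arrays, it was lower than every young array for Hprt, Aprt, Adk, Ada, Pnp, Gda, Nme1 and Nme2, as it was at 31.8% of all tested probe sets, and higher than every young array for Nt5e, as at 41.7%. Except for Gda, the lower genes were above the receptor level on all 3 young arrays. Of the 11635 such probe sets 45% had all 3 old arrays lower, old replicate 3 included, so nothing is read from that count. With the spread taken from the young arrays, and thus on the assumption that a single old array varies like them, limma called Nme1 (-0.67 ± 0.13, SE, adjusted p = 0.0287), Nme2 (-0.79 ± 0.16, SE, adjusted p = 0.0319) and Adk (-0.73 ± 0.17, SE, adjusted p = 0.0476) lower. In that comparison 5.24% of all tested probe sets were called lower and 1.76% higher, with a median difference of 0.05. Hprt (adjusted p = 0.372), Aprt (0.361), Nt5e (0.241), Ada (0.227), Pnp (0.143) and Gda (0.46) were not called, and Xdh lay within the young range with a difference of -0.06. The 3 calls come from 1 array and all were lost without young replicate 1, with adjusted p of 0.0924 for Nme1, 0.0944 for Nme2 and 0.116 for Adk, where 0.807% of all tested probe sets were called. Without young replicate 2 it gave 2 members, where 3.96% were called, and without young replicate 3 it gave 4 members, where 16.7% were. With median centring 3 members were called beside 10.4% of all tested probe sets, and after quantile normalization 2 beside 4.08%. Adk was within the receptor level on that array. The comparisons with and without old replicate 3 share the young arrays, so their values stand side by side only.

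**Figure D2:**
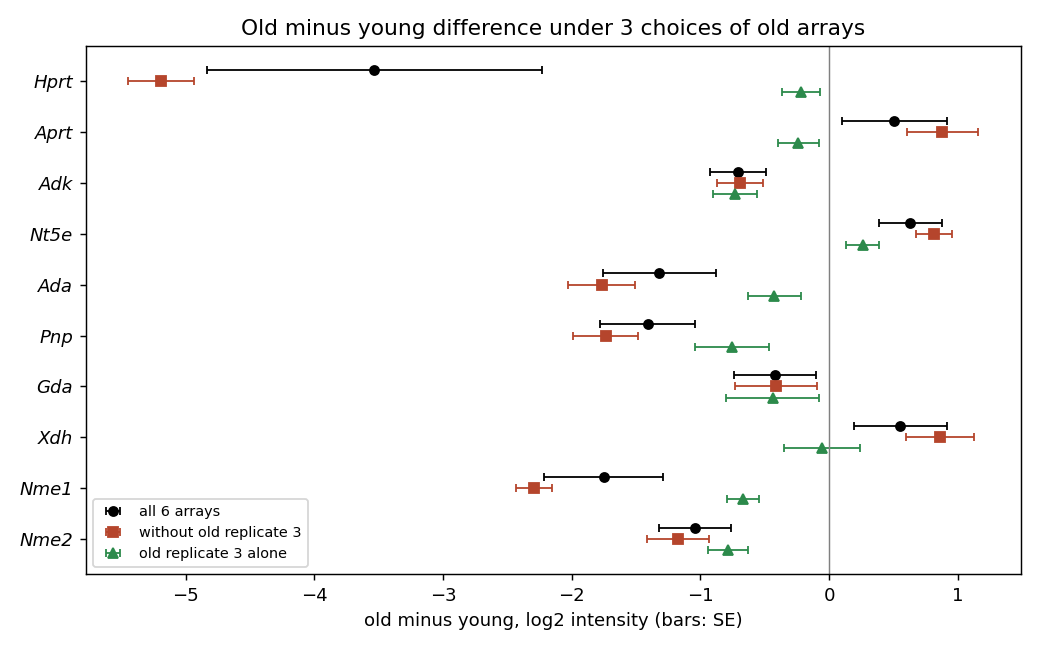
Old minus young difference in log2 intensity (horizontal axis, bars are the SE from limma) for each gene (vertical axis), from all 6 arrays, without old replicate 3, and with old replicate 3 as the sole old array. The estimates for Hprt run from -5.19 without old replicate 3 to -0.22 with it alone, and those for Nme1 from -2.29 to -0.67.

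Side by side, and grouped after their values were seen, the measured members differed in how the old arrays stood to each other. Hprt was near its young level on old replicate 3 and within background on old replicates 1 and 2. Ada, Pnp, Nme1 and Nme2 were below every young array on all 3 old arrays, and on old replicate 3, where all 4 were above background, they differed from the young mean by -0.43 to -0.79. For Ada and Pnp this was less than the range of the young arrays. On the probe set shared by Nme2 and Dscaml1, old replicate 3 lay within the young range. Adk was also below every young array, at values within background on all old arrays. Aprt was above the young mean on old replicates 1 and 2 and not on old replicate 3. The mean log2 value of the 10 members was 5.14, 5.11 and 5.79 on old replicates 1, 2 and 3, against 6.11, 6.01 and 6.46 on young replicates 1, 2 and 3. Of 9771 other genes above the receptor level on all young arrays, Coro1c, which encodes an actin-binding coronin, Rpa1, the large subunit of the single-strand DNA binding complex, and Kif20a, a mitotic kinesin, were the most like it over the 6 arrays, at Pearson correlations of 0.9996, 0.999 and 0.998. In all, 4149 of these genes had a correlation above 0.9, so a like pattern over these 6 arrays sets no gene apart. The points share 3 old arrays that differ among themselves in signal.

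The rest of purine metabolism was described by a list of 55 further genes, of which 43 had a probe set of their own. Those named below are the 2 with the highest young mean in each role, a choice that favours genes lower on the old arrays. None of the 43 passed the threshold with limma, 22 had a lower and 21 a higher old mean, and their median difference was -0.08, against 0.35 for all tested probe sets. Over all 23410 tested probe sets 8912 had a lower and 14498 a higher old mean. Without overlap, 17 of the 43 were lower and 7 higher, where 22.9% and 36.1% of all tested probe sets were. Among the 11635 probe sets above the receptor level on all 3 young arrays these shares were 45% and 15%. The 17 lower genes were all above that level on the young arrays, so nothing is read from that count. Prps1, Prps2, Adss2, Gmps, Dck, Ak3, Nt5c and Dpp4, described below, are among those 17. The unadjusted p was under 0.05 for 17 lower and 4 higher genes, beside 21.9% and 24.9% of all tested probe sets. With old replicate 3 left out, 18 were called lower and 15 higher, beside 30.2% and 52.2%. With old replicate 3 alone 6 were called lower and 0 higher, beside 5.24% and 1.76%.

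The enzymes that make PRPP, the sugar phosphate that Hprt and Aprt consume, were among the lower genes. Prps1 stood at 4.34, 5.26 and 8.15 on old replicates 1, 2 and 3, against a young mean of 8.90 ± 0.16 (SD, n = 3). Prps2 stood at 5.24, 4.92 and 7.68 against 7.89 ± 0.25 (SD, n = 3). Their differences were -2.98 ± 0.90 and -1.94 ± 0.70 (SE), or -3.33 and -2.29 relative to the median. Both were within the receptor level on old replicates 1 and 2, as Hprt was, and on old replicate 3 both were under the lowest young array, Prps2 by less than its printed decimals show. The group of substrate supply and further breakdown had 4 of 5 measured genes with a lower old mean.

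Among the enzymes that interconvert purine nucleotides, 5 of 8 measured genes had a lower old mean. Adss2, which starts the path from IMP to AMP, stood at 6.21, 6.23 and 8.81 on old replicates 1, 2 and 3, against a young mean of 9.27 ± 0.16 (SD, n = 3). Gmps, which makes GMP, stood at 4.83, 5.35 and 7.76 against 8.52 ± 0.21 (SD, n = 3). Both were at background on old replicates 1 and 2 and below all young arrays on old replicate 3. All 3 old arrays were lower at 45% of the 11635 probe sets above the receptor level on all young arrays.

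The nucleoside and nucleotide kinases were split, with 6 of 12 measured genes lower and 6 higher in the mean. Dck, which phosphorylates deoxycytidine, deoxyadenosine and deoxyguanosine, stood at 5.05, 5.55 and 7.13 on old replicates 1, 2 and 3, against a young mean of 7.81 ± 0.17 (SD, n = 3). Ak3, a mitochondrial adenylate kinase, stood at 5.41, 5.06 and 6.57 against 7.07 ± 0.12 (SD, n = 3). Both were below all young arrays on every old array. So were 45% of the 11635 probe sets above the receptor level on all young arrays. On old replicates 1 and 2 Dck and Ak3 were within the receptor level.

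Of 11 nucleotidases 6 had a lower old mean. Samhd1, which hydrolyses deoxynucleoside triphosphates, stood at 5.03, 4.65 and 10.06 on old replicates 1, 2 and 3, against a young mean of 9.81 ± 0.13 (SD, n = 3), so that old replicate 3 was above all young arrays. Nt5c, a nucleotidase of the cytosol, stood at 6.65, 6.15 and 7.26 against 7.67 ± 0.03 (SD, n = 3), lower on all 3 old arrays. Samhd1 was within the receptor level on old replicates 1 and 2, and Nt5c on old replicate 2. Of 7 measured transporters and surface proteins 6 had a higher old mean, as had 14498 of the 23410 tested probe sets. The exception was Dpp4 (CD26), whose human form binds ADA at the cell surface, at 5.89, 5.09 and 9.65 on the old arrays against 10.01 ± 0.05 (SD, n = 3). On old replicates 1 and 2 Dpp4 was within the receptor level. Slc29a3, a nucleoside transporter, stood at 6.50, 6.84 and 6.39 against 6.11 ± 0.06 (SD, n = 3), above the receptor level on all 6 arrays.

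**Figure D3:**
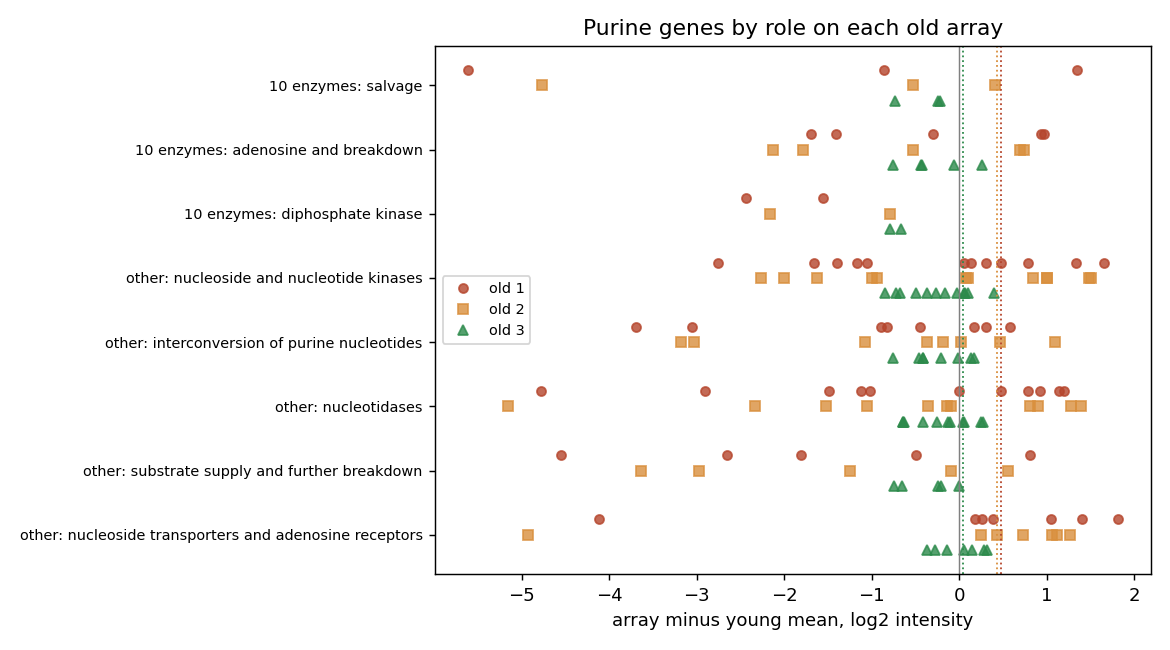
Difference of each old array from the young mean in log2 intensity (horizontal axis) for the 10 enzymes and the 43 further purine genes by role (vertical axis), with dotted lines for the median of all tested probe sets on each old array. The 53 genes lie between -0.84 and 0.40 on old replicate 3, between -5.61 and 1.82 on old replicate 1 and between -5.15 and 1.51 on old replicate 2.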

How the data were processed

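RNA from sorted pro-B and pre-B cells was hybridised to 6 arrays, 3 for each age. The authors deposited probe set intensities. Per the submitters' processing notes they used RMA, with no version or settings stated. The values proved linear, so log2 of the deposited intensity was taken. The platform annotation pairs 21789 probe sets with 1 gene and 1621 with several, and these 23410 were tested. A gene with several probe sets of its own was given by the brightest.

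Old and young arrays were compared with limma 3.58.1 in R 4.3.3 (moderated variances, 2-sided, Benjamini-Hochberg over all 23410, threshold 0.05), with age as the only factor and no array left out. The code was tested on simulated data. Tables were made with pandas 2.3.3 and numpy 2.4.6 under Python 3.11.15, and figures with matplotlib 3.10.9. The receptor level uses probe sets whose first listed gene is an olfactory or vomeronasal receptor.

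Same-numbered old and young arrays had deviations from their group means that correlated at 0.157, 0.15 and 0.279 over the probe sets, above the limit of 0.1 set for treating the numbers in the sample titles as pairs. Old replicate 1 correlated with young replicate 2 at 0.153 and old replicate 2 with young replicate 1 at 0.141, so these numbers are not told apart. The replicate block was an alternative fit. The others were 5 changes of filter, scaling or variance moderation, array weights, each array left out, old replicate 3 as the sole old array, an adjusted p under 0.1 and a stricter receptor level.

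The members, the lists and the tests were chosen with earlier results of these data known. Every member is named, and of the other purine genes the 2 with the highest young mean in each role. Genes of like pattern are the 3 with the highest correlation with the members' mean.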

Additional observations from a re-analysis of the deposited data

How the results depend on the processing

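The counts of calls depended on old replicate 3. Over the fits that leave out 1 array each, the count ran from 0 to 19285 for all tested probe sets, from 0 to 9 for the 10 members and from 0 to 33 for the 43 other purine genes, the highest each time without old replicate 3. Estimated array weights gave 19998, 9 and 35, and old replicate 3 as the sole old array gave 1638, 3 and 6. In alternatives chosen after seeing the data, that single array gave 3 members with median centring (10.4% of all tested probe sets) and 2 with quantile normalization (4.08%), where Nme1 was not called (adjusted p = 0.0952). Without young replicates 1, 2 and 3 it gave 0, 2 and 4 members, beside 0.807%, 3.96% and 16.7% of all tested probe sets. With the replicate block no member was called (adjusted p from 0.081 to 0.323), and the block changed no other call. Nor was any member called with median centring, quantile normalization, trended robust moderation, all probe sets, dim probe sets left out (where Nt5e, below the level of 4.32, has no value) or an adjusted p under 0.1. Over all 6 arrays neither median centring nor quantile normalization turned a member's direction. With old replicate 3 as the sole old array Aprt and Xdh turned, to -0.24 and -0.055. In that comparison Hprt stood at -0.22 as deposited and turned to 0.0045 after quantile normalization, and Xdh turned to 0.20 without young replicate 3. At the 99th percentile of the receptor probe sets 0 in place of 2 members lay above background on old replicate 2. Each gene has 1 probe set, so averaging probe sets changes nothing. The cause of these dependences was not tested. Signal over background limits the sizes on old replicates 1 and 2.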

Other observations

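A pair of further probe sets is annotated to a member together with another gene and was left out of the members. The probe set shared by Pnp and its neighbour Pnp2 stood at 5.16, 5.12 and 6.45 on old replicates 1, 2 and 3, against 7.36, 7.37 and 8.37 on young replicates 1, 2 and 3, a difference of -2.13 ± 0.46 (SE) with an adjusted p of 0.101 with limma. The order of its groups was that of the probe set of Pnp alone. The probe set shared by Nme2 and Dscaml1 read 8.002, 9.65 and 10.56 for old replicates 1, 2 and 3, against 10.53, 10.43 and 10.75 for young replicates 1, 2 and 3 (-1.17 ± 0.61, SE, adjusted p = 0.147). Here old replicate 3 lay within the young range, unlike on the probe set of Nme2 alone, where it was below all young arrays. Which transcripts these shared probe sets read was not tested.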
